A study of Mus musculus with 6 samples.

Results

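The Schlafen genes of the mouse were followed in B16-F1 melanomas grown in hosts that lacked Stat2 and in WT hosts. The family was taken as Slfn1, Slfn2, Slfn3, Slfn4, Slfn5, Slfn8 and Slfn9, 7 genes in all, and every probe set of the array that the platform annotation assigns to any of them was used, whatever its values. This gave 8 of the 41345 probe sets of the table. Of these, 6 name a single gene and give Slfn1, Slfn2, Slfn3, Slfn4, Slfn5 and Slfn8 a reading of their own, and 2 are shared, 1 between Slfn9 and Slfn8 and 1 between Slfn5 and its neighbour on the opposite strand, Slfn5os. Slfn9 was therefore read only together with Slfn8. The Stat2 KO group held 3 tumours grown in C57BL6 mice without Stat2, and the WT group held 3 tumours grown in C57BL6 mice with the gene intact. B16-F1 is a pigmented melanoma line of C57BL/6 origin. The cells were implanted at the dorsal flank and the tumours were taken at day 20, and total RNA of each was hybridized to 1 Affymetrix array. The genotype is that of the host. The labels do not say that the implanted cells lacked Stat2, give no age of the mice and do not say how the gene was inactivated. They speak of individual tumours without naming the mouse each came from, so p-values here take in only the spread among the 6 tumours sampled.

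Schlafen genes take their name from the German word for sleeping, because the first of them were found to restrain the growth of thymocytes. The mouse genes fall into short, intermediate and long forms. The short forms are Slfn1 and Slfn2, the intermediate forms Slfn3 and Slfn4, and the long forms, which carry a helicase-like part at their C-terminal end, include Slfn5, Slfn8 and Slfn9. Several are induced by type I interferon, whose receptor activates STAT2, which acts with IRF9 in ISGF3, the factor that binds interferon response elements in target promoters. In human melanoma cells SLFN5 has been described as an interferon-induced restraint on invasion. In mice Slfn2 keeps T cells and monocytes viable, and it shields transfer RNAs from cleavage by angiogenin.

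All 7 genes lie side by side on mouse chromosome 11, together with Slfn10-ps and Slfn14, in the order Slfn5, Slfn9, Slfn8, Slfn10-ps, Slfn2, Slfn1, Slfn4, Slfn3 and Slfn14 in the RefSeq annotation of GRCm38.p6, with pseudogenes and predicted noncoding genes between some of them. Promoter windows from RefSeq, build GRCm38.p6, cover 250 bases before and 50 bases after each annotated start, and all 7 members had at least 1 window. Slfn5, Slfn2, Slfn1, Slfn4 and Slfn3 are read from the plus strand, and Slfn9 and Slfn8 from the minus strand. The windows of Slfn8 and Slfn9 are near copies of each other, with 80.5% identical bases in a global alignment, while the other pairs among the members and Slfn14 reached at most 49.4%. These windows are shown in full because the probe set shared by these genes had the smallest p of the family. Capitals mark the interferon response element core, searched on both strands as GAAA, 2 bases of any kind and GAAA again, which lies here on the opposite strand.
Slfn9, chr11:82991781-82992080, minus strand: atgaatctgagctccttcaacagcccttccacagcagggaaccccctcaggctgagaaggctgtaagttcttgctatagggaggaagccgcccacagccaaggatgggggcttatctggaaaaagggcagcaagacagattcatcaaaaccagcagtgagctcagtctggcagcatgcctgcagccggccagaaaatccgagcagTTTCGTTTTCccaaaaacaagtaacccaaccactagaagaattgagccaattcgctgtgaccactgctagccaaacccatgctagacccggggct
Slfn8, chr11:83020761-83021060, minus strand: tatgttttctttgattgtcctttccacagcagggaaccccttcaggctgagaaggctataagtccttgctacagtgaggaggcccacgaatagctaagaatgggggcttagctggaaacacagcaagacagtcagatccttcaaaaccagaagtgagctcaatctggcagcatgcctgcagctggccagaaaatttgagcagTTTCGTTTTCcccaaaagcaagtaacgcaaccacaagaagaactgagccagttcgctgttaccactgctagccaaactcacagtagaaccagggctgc

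The core began at base -45 of Slfn9 and base -48 of Slfn8, counted from the annotated start. A second annotated start of Slfn8 has a window that overlaps the one shown and holds the same match. Slfn5 was the only other member with a match, at base -155 and beside a run of adenines. Of the 32851 promoter windows in the table, 3.44% held the core. The gamma-activated site core TTCNNNGAA, found in 8.30% of all windows, and the NF-kappa B core, GGGA and TTCC with 2 bases between them, found in 1.47%, were in none of the windows of the 7 members. The windows of Slfn2, Slfn1, Slfn4 and Slfn3, which are neighbours along the chromosome, each held the letters ACTTCCTGG on their own strand. This stretch was noticed on reading the windows, so its presence in 4 of the 7 genes is a description. It was in 0.843% of all windows, searched on both strands. A match is a run of letters and shows no binding. The stretches around these matches are given so that they can be compared, with the interferon response element core of Slfn5 and the shared stretch of the other genes in capitals.
Slfn5, chr11:82951922-82951981, plus strand: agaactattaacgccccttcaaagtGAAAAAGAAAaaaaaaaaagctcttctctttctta
Slfn2, chr11:83065032-83065090, plus strand: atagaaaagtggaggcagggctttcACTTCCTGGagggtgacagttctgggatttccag
Slfn1, chr11:83116721-83116779, plus strand: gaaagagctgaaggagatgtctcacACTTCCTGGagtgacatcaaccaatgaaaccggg
Slfn4, chr11:83175088-83175146, plus strand: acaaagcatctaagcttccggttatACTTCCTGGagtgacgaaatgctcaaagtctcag
Slfn3, chr11:83191263-83191321, plus strand: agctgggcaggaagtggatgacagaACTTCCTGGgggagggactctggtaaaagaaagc

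**Figure D1:**
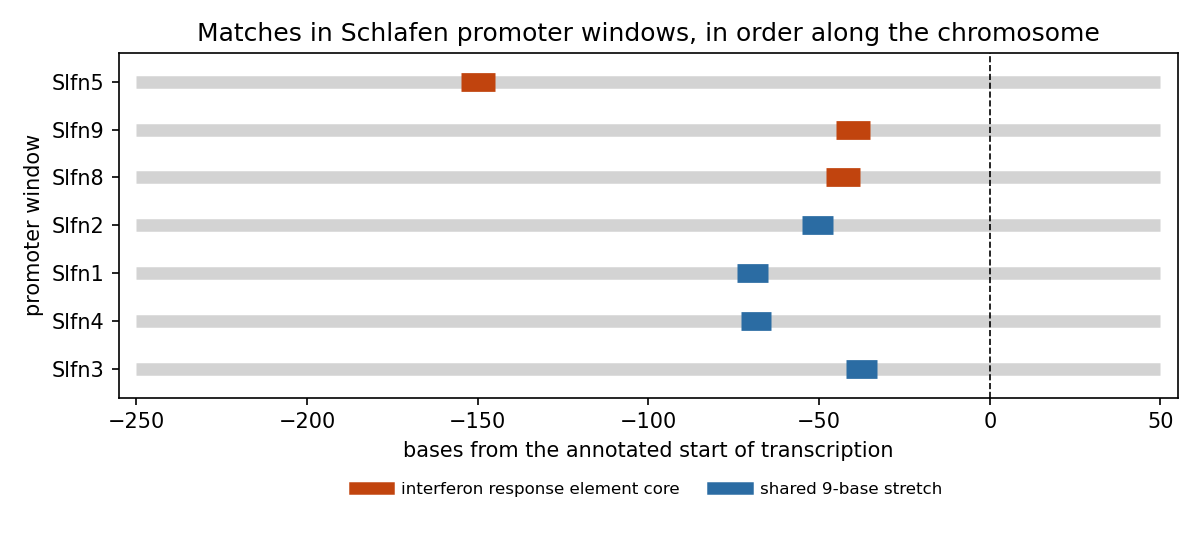
Promoter windows of the 7 genes from top to bottom in their order along the chromosome, with the distance from the annotated start in bases on the x axis. Orange marks the interferon response element core, in Slfn5, Slfn9 and Slfn8, and blue the shared stretch of 9 bases, in Slfn2, Slfn1, Slfn4 and Slfn3.

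Values are on the log2 scale, with 1 value for each probe set in each tumour. Array medians were 6.08, 6.22 and 6.17 in Stat2 KO hosts, against 6.06, 6.06 and 6.13 in WT hosts, and the arrays correlated pairwise between 0.951 and 0.975 across probe sets. The labelled tissue was checked with 8 melanocyte and melanoma markers, whose mean level lay between 11.18 and 11.61 in Stat2 KO hosts and between 11.43 and 11.68 in WT hosts, far above the median probe set at 6.11. The probe set of Stat2 read 6.45, 6.48 and 6.33 in Stat2 KO hosts, against 6.79, 6.70 and 6.70 in WT hosts. The difference was -0.31 (SE 0.12, limma adjusted p = 0.732), and the part of Stat2 that the probe set reads was not known here, so this bears only weakly on the labels. As a guide to background, the 1092 olfactory receptor probe sets, of genes without a known use in tumours, had a median of 5.21 and a 90th percentile of 6.42. All 8 Schlafen probe sets averaged above that median, Slfn5 by little at 5.24. Those of Slfn3, Slfn8, and Slfn9 with Slfn8, 3 in all, averaged above the 90th percentile. Those of Slfn1 (5.77), Slfn2 (5.84), Slfn4 (6.32) and Slfn5os with Slfn5 (6.29) averaged below it, so a reading above background is less sure for them. Levels depend on the probes of a probe set, so the gap between a pair of probe sets within an array has no reading of its own, and only its difference between the hosts is used.

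The question put by the pair of hosts is whether the Schlafen genes of a tumour depend on STAT2 in the host. Differences within the family ran both ways. Of the 8 probe sets, 4 were lower and 4 higher in Stat2 KO hosts, where 45.4% of all probe sets were lower. The median difference over the 6 genes with a probe set of their own was -0.0074, beside 0.026 over all probe sets. With Benjamini-Hochberg adjustment over the whole table, limma called 0 of the 8, where 0.00% of all 41345 probe sets were called, and their smallest adjusted p was 0.732. No probe set of the table had a lower adjusted p, and many with unlike unadjusted p share this value, so it does not rank them. In limma 151 probe sets had a lower unadjusted p than the shared probe set of Slfn9 and Slfn8, at 0.0031. That of Slfn3 was 0.0228. At an unadjusted p under 0.05 there were 2 of the 8, the shared probe set of Slfn9 and Slfn8 and that of Slfn3, both lower, where 3.00% of all probe sets were lower and passed and 6.69%, or 2766, passed in either direction. Leaving out Stat2 KO replicate 2 gave Slfn3 an unadjusted p of 0.0792 in limma, leaving out Stat2 KO replicate 3 gave 0.0693, and leaving out WT replicate 1 gave 0.0810, so that 1 of the 8 was left in each case. With only the brightest probe set kept per gene, limma called 2 of 22180 genes (0.00902%), and 0 of the 6 Schlafen genes with a probe set of their own.

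**Figure D2:**
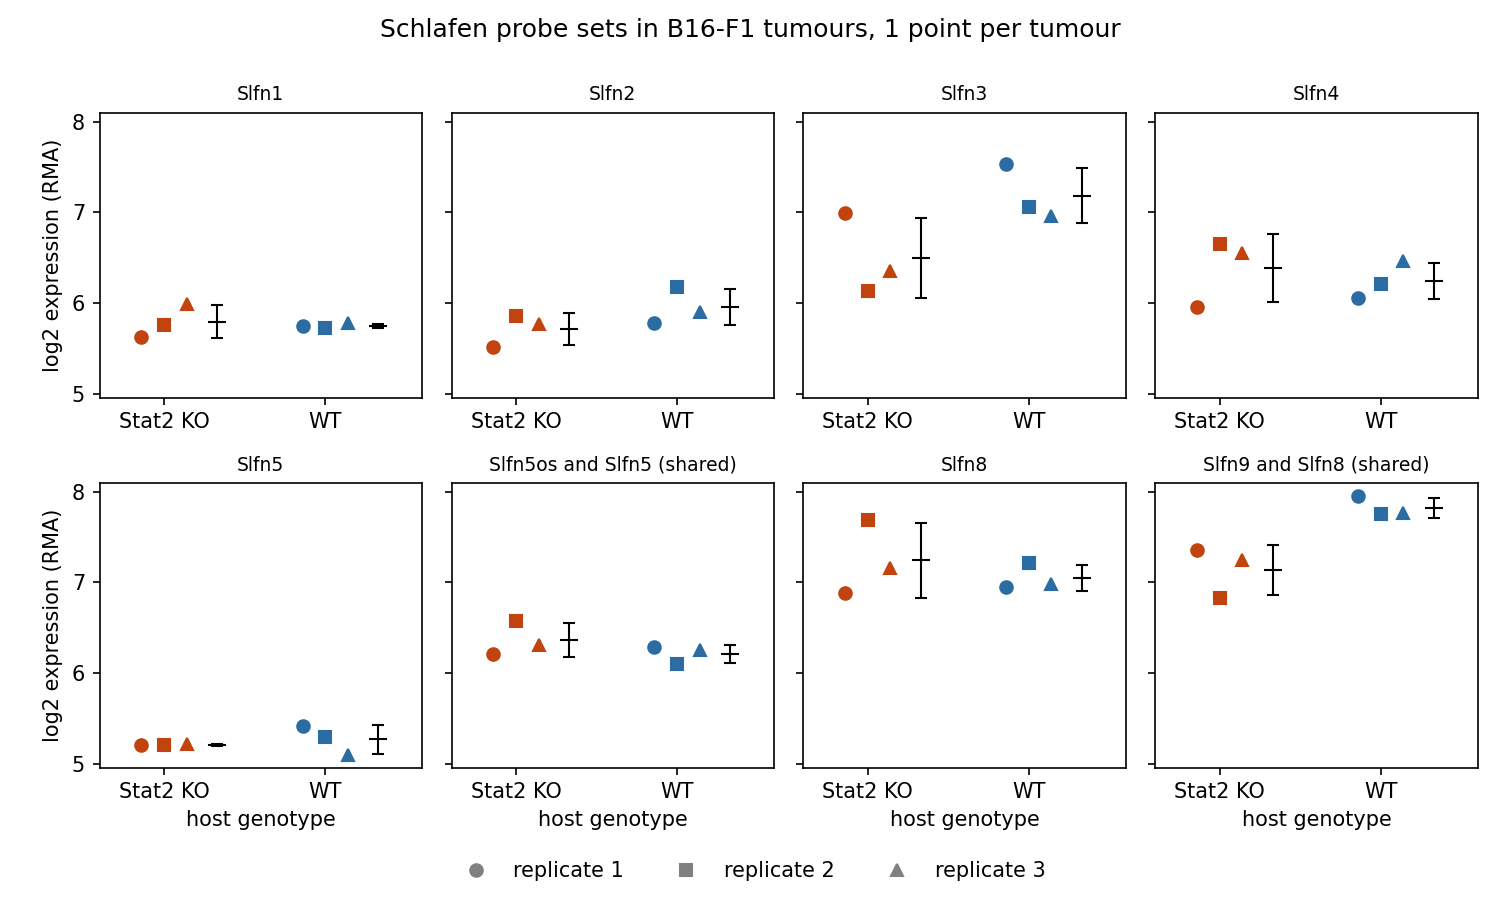
Log2 expression of the 8 Schlafen probe sets, 1 point per tumour, with Stat2 KO hosts in orange and WT hosts in blue, symbols for the replicate number, and black bars for the mean ± SD of 3 tumours. The shared probe set of Slfn9 and Slfn8 is the 1 panel in which the groups do not overlap, with 6.83 to 7.35 in Stat2 KO hosts, against 7.75 to 7.95 in WT hosts.

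The long forms Slfn8 and Slfn9 belong to the group with a helicase-like part, as does human SLFN11, which blocks stressed replication forks. Their shared probe set read 7.35, 6.83 and 7.24 in Stat2 KO hosts, against 7.95, 7.75 and 7.76 in WT hosts. The highest Stat2 KO tumour stayed under the lowest WT tumour, as was the case for 4.98% of all probe sets. The means were 7.14 ± 0.28 in Stat2 KO hosts, against 7.82 ± 0.11 in WT hosts (SD, n = 3 each), and the difference was -0.68 (SE 0.16, 95% interval -1.06 to -0.30, limma adjusted p = 0.732), a change of -37.5% on the linear scale. The exact two-sided permutation p was 0.1, the smallest that 3 against 3 can give. A difference this low or lower was found for 1.49% of all probe sets. RNA came from whole tumours, so fewer cells of a type and less RNA per cell cannot be told apart here or in the results that follow.

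The probe set that names Slfn8 alone gave a difference of the opposite sign. It read 6.88, 7.69 and 7.16 in Stat2 KO hosts, against 6.95, 7.22 and 6.99 in WT hosts, and the groups overlapped. The difference was 0.19 (SE 0.21, 95% interval -0.29 to 0.68, limma adjusted p = 0.832). It rested on Stat2 KO replicate 2, the highest of the 6, and was -0.029 without that tumour. The same tumour had the lowest reading of the shared probe set.

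Within each array the shared reading minus that of Slfn8 was 0.47, -0.86 and 0.083 in Stat2 KO hosts, against 1.01, 0.53 and 0.78 in WT hosts. All gaps in Stat2 KO hosts were smaller than all gaps in WT hosts, by little at the nearest, 0.47 against 0.53. The mean gap differed between the hosts by -0.87 (exact permutation p = 0.1, the smallest that 3 against 3 can give). Without Stat2 KO replicate 2 this difference was -0.49. The pair holds the probe set with the smallest p of the family. How many other pairs of probe sets part the hosts in this way was not counted. A gap within an array is free only of a shift that is the same for both probe sets. Stat2 KO replicate 2, with the gap of -0.86, had the highest array median, 6.22, and the lowest mean of the melanoma markers, 11.18. Whether a shift that differs between probe sets had a part in its gap was not tested. Which of its transcripts the shared probe set read in these tumours cannot be told apart, and no probe set of Slfn9 alone was used here.

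**Figure D3:**
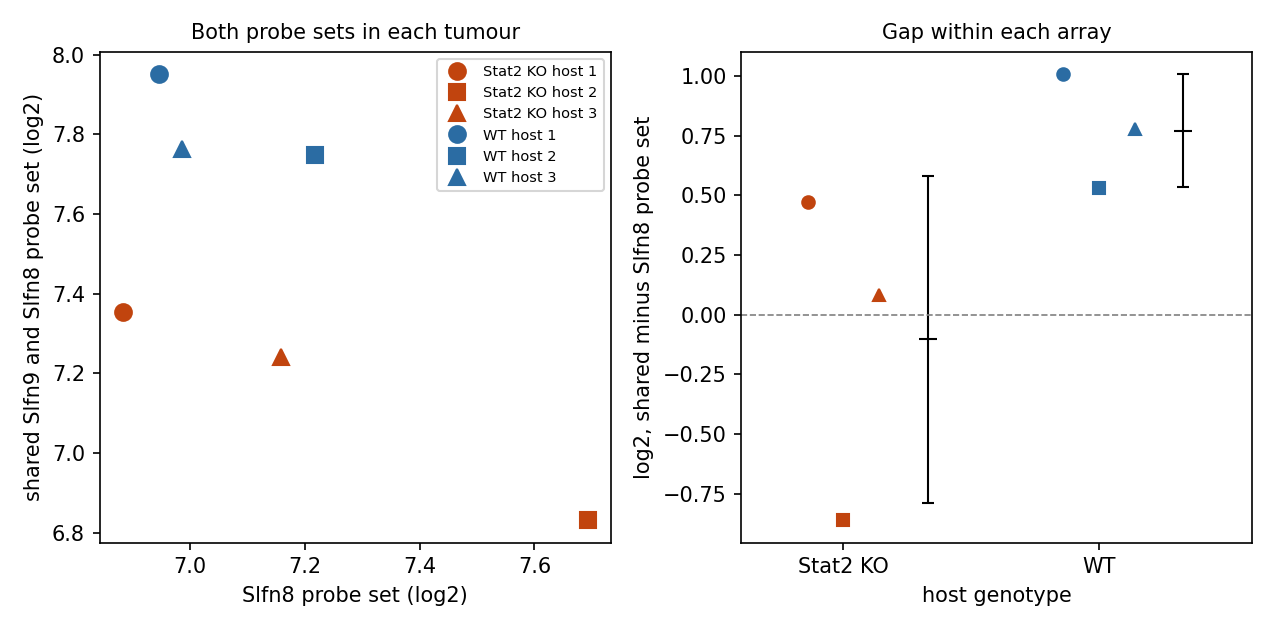
On the left, the shared probe set of Slfn9 and Slfn8 (y axis, log2) against the Slfn8 probe set (x axis, log2) in the 6 tumours, and on the right their gap within each array with mean ± SD of 3 tumours. The Stat2 KO tumours lie below the WT tumours in the shared probe set but spread over both sides of them in Slfn8.

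The intermediate form Slfn3 has been tied to the differentiation of the intestinal epithelium in rodents. It read 6.99, 6.14 and 6.36 in Stat2 KO hosts, against 7.53, 7.05 and 6.96 in WT hosts. The groups overlapped narrowly, since Stat2 KO replicate 1 lay just above WT replicate 3. The means were 6.50 ± 0.44 in Stat2 KO hosts, against 7.18 ± 0.31 in WT hosts (SD, n = 3 each), and the difference was -0.69 (SE 0.25, 95% interval -1.25 to -0.12, limma adjusted p = 0.732, exact permutation p = 0.2). A difference this low or lower was found for 1.40% of all probe sets.

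Slfn4, the other intermediate form, is known from monocytes and macrophages and from myeloid-derived suppressor cells of the inflamed stomach in mice. It read 5.96, 6.65 and 6.55 in Stat2 KO hosts, against 6.06, 6.22 and 6.46 in WT hosts. The groups overlapped, with Stat2 KO replicate 1 the lowest of all 6 tumours and the other Stat2 KO tumours the highest. The difference was 0.14 (SE 0.21, 95% interval -0.34 to 0.62, limma adjusted p = 0.877). Slfn3 and Slfn4 are neighbours along the chromosome. Within each array the Slfn3 reading minus the Slfn4 reading was 1.03, -0.51 and -0.20 in Stat2 KO hosts, against 1.47, 0.84 and 0.50 in WT hosts. These gaps overlapped between the hosts and differed by -0.83 (exact permutation p = 0.3).

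The short form Slfn2 read 5.52, 5.86 and 5.77 in Stat2 KO hosts, against 5.78, 6.18 and 5.91 in WT hosts. The lowest tumour was from a Stat2 KO host and the highest from a WT host, with overlap between. The means were 5.72 ± 0.18 in Stat2 KO hosts, against 5.96 ± 0.20 in WT hosts (SD, n = 3 each), a difference of -0.24 (SE 0.16, 95% interval -0.62 to 0.14, limma adjusted p = 0.768). The short form Slfn1, a brake on thymocyte growth, read 5.63, 5.76 and 5.995 in Stat2 KO hosts, against 5.75, 5.73 and 5.78 in WT hosts. The Stat2 KO tumours lay on both sides of the WT tumours, which were within 0.1 of each other. The difference of Slfn1 was 0.045 (SE 0.15, 95% interval -0.29 to 0.38, limma adjusted p = 0.947), and its sign turned after median centring and after a further quantile normalization, to -0.029 and -0.036.

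Slfn5 is the family member best described as an interferon target in human melanoma cells. Its own probe set read 5.21, 5.21 and 5.22 in Stat2 KO hosts, against 5.41, 5.30 and 5.10 in WT hosts. These levels lie at the median of the olfactory receptor probe sets, so a reading above background was not shown in either group. The difference was -0.060 (SE 0.15, 95% interval -0.40 to 0.28, limma adjusted p = 0.930). The probe set shared with Slfn5os, a long noncoding RNA read from the opposite strand, read 6.21, 6.58 and 6.31 in Stat2 KO hosts, against 6.29, 6.10 and 6.25 in WT hosts. The groups overlapped and the difference was 0.15 (SE 0.15, 95% interval -0.18 to 0.49, limma adjusted p = 0.813). Within each array this reading minus that of the Slfn5 probe set was 1.00, 1.37 and 1.09 in Stat2 KO hosts, against 0.88, 0.80 and 1.15 in WT hosts, a difference of 0.21 with overlap (exact permutation p = 0.3). The intervals of these probe sets reach down to -0.40 and -0.18 on the log2 scale. They set no limit on a change of Slfn5 itself, since the first reads near background and the second is shared with Slfn5os.

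**Figure D4:**
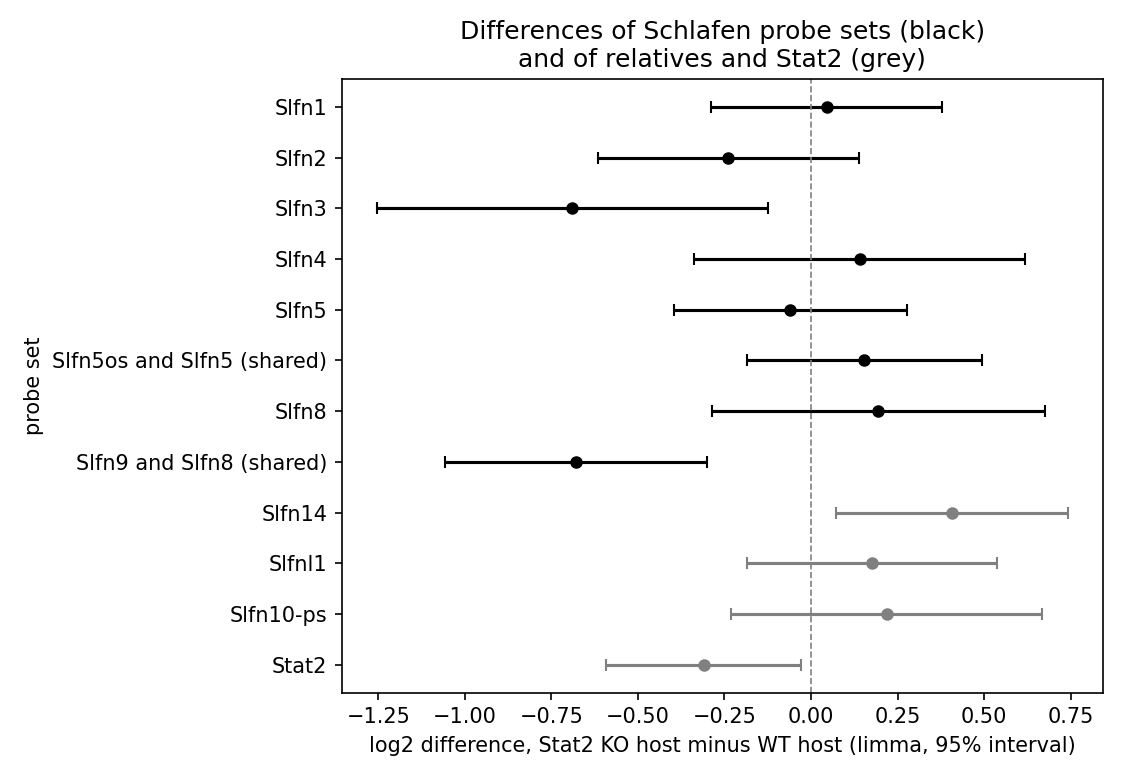
Log2 difference of Stat2 KO hosts minus WT hosts for the 8 Schlafen probe sets in black and for Slfn14, Slfnl1, Slfn10-ps and Stat2 in grey, with limma's 95% interval, not adjusted for the number of probe sets. The intervals of Slfn3 and of the shared probe set of Slfn9 and Slfn8 lie below 0, and the other 6 Schlafen intervals include 0.

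Of the relatives outside the 7 genes, 3 had a probe set of their own, and all 3 were higher in Stat2 KO hosts. Their median difference was 0.22, but leaving out WT replicate 1 gave 0.043 and leaving out WT replicate 2 gave 0.36. Slfn14, which in mice and humans acts in red cell and platelet formation, read 5.83, 5.83 and 5.60 in Stat2 KO hosts, against 5.48, 5.28 and 5.28 in WT hosts. The lowest Stat2 KO tumour stayed over the highest WT tumour, as was the case for 7.30% of all probe sets, and the difference was 0.41 (SE 0.15, 95% interval 0.074 to 0.74, limma adjusted p = 0.732). Slfn10-ps differed by 0.22 (adjusted p = 0.802) and Slfnl1, which lies on another chromosome, by 0.18 (adjusted p = 0.802), both with groups that overlapped. The level of Slfn14 was close to the median of the olfactory receptor probe sets in WT hosts.

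None of the genes that carry the interferon signal to ISGF3 was called. All 6 with a probe set of their own were lower in Stat2 KO hosts, with a median difference of -0.19, beside 0.021 over all genes, and 0 of the 6 passed the adjusted threshold in limma. Leaving out Stat2 KO replicate 1 gave a median of -0.30, and leaving out Stat2 KO replicate 2 gave -0.087. At an unadjusted p under 0.05 there was 1, Stat2, where 3.00% of all probe sets were lower and passed. Stat2 no longer passed in limma when Stat2 KO replicate 3 was left out (unadjusted p = 0.112) or any of WT replicates 1, 2 and 3 (unadjusted p = 0.101, 0.0749 and 0.0604 in turn), nor with the replicate number as a block, at 0.0503. Irf9, the DNA-binding part of ISGF3, differed by -0.32 (adjusted p = 0.737) and the kinase gene Jak1 by -0.24 (adjusted p = 0.761). The receptor genes Ifnar2 and Ifnar1 differed by -0.15 (adjusted p = 0.838) and -0.12 (adjusted p = 0.845), and the kinase gene Tyk2 by -0.036 (adjusted p = 0.957). The mean level of these 6 genes lay between 7.48 and 7.84 in Stat2 KO hosts and between 7.76 and 7.89 in WT hosts, so the groups overlapped.

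Other genes induced by interferon were mostly lower in Stat2 KO hosts. Of 25 measured, 21 were lower and 4 higher, where 45.4% of all probe sets were lower, and limma called 0 after adjustment. The median difference was -0.18, but -0.28 and -0.12 with Stat2 KO replicates 1 and 2 left out in turn, and -0.093 with WT replicate 3 left out. At an unadjusted p under 0.05 there were 4, all lower, where 3.00% of all probe sets were. Cmpk2, a nucleotide kinase, read 7.21, 6.85 and 7.22 in Stat2 KO hosts, against 8.25, 7.91 and 7.84 in WT hosts. Its difference was -0.91 (SE 0.17, adjusted p = 0.732), larger in size than that of any Schlafen probe set. The antiviral gene Rsad2 differed by -0.73 (SE 0.20, adjusted p = 0.732) and Usp18, which removes ISG15 from proteins, by -0.44 (SE 0.13, adjusted p = 0.732). The mean level of the list lay between 6.42 and 6.61 in Stat2 KO hosts and between 6.65 and 6.91 in WT hosts, without overlap. Among single probe sets 4.98% lay lower without overlap, and the share for gene lists was not counted. Whether the Schlafen genes differ from this list was not tested. Genes that cleave or protect transfer RNA, the process tied to Slfn2, were lower in 5 of 5 with a median of -0.22, which was -0.14 with Stat2 KO replicate 2 left out, and -0.13 and -0.35 with WT replicates 1 and 3 left out in turn. Rnh1, the inhibitor of angiogenin, differed by -0.48 (SE 0.20, adjusted p = 0.732), Elac2, which trims transfer RNA precursors, by -0.24 (adjusted p = 0.748) and the RNA methyltransferase gene Trdmt1 by -0.21 (adjusted p = 0.788). The mean level of the list lay between 8.12 and 8.39 in Stat2 KO hosts and between 8.31 and 8.60 in WT hosts.

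Schlafen genes are active in several immune cell types, so markers of the cells a tumour can hold were read beside them. Macrophage and monocyte markers were lower in 10 of 11, with a median difference of -0.29, where 45.4% of all probe sets were lower. At an unadjusted p under 0.05 there were 4, all lower, where 3.00% of all probe sets were lower and passed. Their mean level lay between 5.97 and 6.19 in Stat2 KO hosts and between 6.27 and 6.53 in WT hosts, and 10 of the 11 averaged above the olfactory receptor median. C1qb, a complement component, stood at -0.95 (SE 0.17), Ms4a7, a membrane protein of tissue macrophages, at -0.83 (SE 0.21) and Cd68, a lysosomal glycoprotein, at -0.61 (SE 0.17), each with a limma adjusted p of 0.732. Ly6c2 went the other way, at 0.35 without overlap, but averaged below the olfactory receptor median. Mrc1, Fcgr1 and Ccr2 differed by only -0.038, -0.10 and -0.14. Over the alternatives the median of this list lay between -0.49 and -0.21. Fibroblast markers were lower in 7 of 8, with a median of -0.36, or -0.20 without Stat2 KO replicate 2. At an unadjusted p under 0.05 there were 3, all lower, against the same 3.00% of all probe sets. Their mean level lay between 6.32 and 6.73 in Stat2 KO hosts and between 6.79 and 7.08 in WT hosts, and all 8 averaged above the olfactory receptor median. Among them the proteoglycan gene Dcn differed by -0.94 (SE 0.24), Lum by -1.21 (SE 0.44) and the collagen gene Col3a1 by -0.41 (SE 0.16), each with an adjusted p of 0.732. Lum read 5.51, 5.33 and 5.63 in Stat2 KO hosts, against 7.64, 6.87 and 5.60 in WT hosts, so its groups overlapped. Pdgfra went the other way, at 0.11, and Fap and Pdgfrb differed by -0.017 and -0.11. Both lists separated the hosts in the same direction as the shared probe set of Slfn9 and Slfn8, and their part in that difference was not tested. Of single probe sets, 4.98% separated the hosts in this direction, and the share for gene lists was not counted. RMA gives no value of 0, so no marker can be listed as absent.

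Lymphoid, dendritic and neutrophil markers were mostly higher in Stat2 KO hosts, where 45.4% of all probe sets were lower. Their list medians were smaller after median centring of the arrays. They were then 0.00086 for T cell, 0.043 for NK cell, 0.026 for B cell and 0.093 for dendritic cell markers. Markers of T cells, in which Slfn1 and Slfn2 are known to act, were higher in 8 of 10, with a median of 0.076, or -0.0072 once quantile normalization was applied again, and 0.18 and 0.026 with Stat2 KO replicates 1 and 2 left out in turn. Their mean level lay between 5.72 and 5.98 in Stat2 KO hosts and between 5.73 and 5.85 in WT hosts. Of the 10, 9 averaged above the olfactory receptor median, but even the brightest, Cd8b1, averaged under the 90th percentile of 6.42. Cd28, a costimulatory receptor, differed by 0.46 (SE 0.15) and Il7r, an interleukin receptor, by -0.40 (SE 0.19), each with an adjusted p of 0.732, and Cd5 by 0.25 (adjusted p = 0.750). Dendritic cell markers were higher in 7 of 7 with a median of 0.17 and overlapping groups, at 5.85 to 6.22 in Stat2 KO hosts, against 5.89 to 5.94 in WT hosts. That median was 0.27, 0.087 and 0.092 without Stat2 KO replicates 1, 2 and 3 in turn, and 0.11 without WT replicate 3. All 7 averaged above the olfactory receptor median, but only Ccr7 above the 90th percentile. Neutrophil markers were higher in 8 of 9 with a median of 0.13. That median was 0.20 without WT replicate 3, but 0.051 after median centring and 0.076 after further quantile normalization. Their mean level was 5.35 to 5.45 in Stat2 KO hosts, against 5.16 to 5.32 in WT hosts, without overlap, where 7.30% of single probe sets lay higher without overlap. Of the 9, 5 averaged above the olfactory receptor median. Single arrays, left out 1 at a time, moved the size or sign of the medians of the remaining lists. For 6 NK cell markers the median was 0.12, with 0.21, 0.024 and 0.011 without Stat2 KO replicates 1, 2 and 3 in turn, and 0.037 and 0.20 without WT replicates 2 and 3. Of the 6, 5 averaged above the olfactory receptor median, but only Prf1 above the 90th percentile. For 5 B cell markers the median was 0.10, with 0.15 and -0.014 without Stat2 KO replicates 1 and 2, and 0.064, 0.031 and 0.22 without WT replicates 1, 2 and 3. All 5 averaged above the olfactory receptor median but under the 90th percentile. For 7 endothelial markers the median was -0.028, with 0.039 and -0.052 without Stat2 KO replicates 1 and 3, and -0.045 without WT replicate 3. The melanocyte and melanoma markers, 7 of 8 of them lower, had a median of -0.093, with -0.18, 0.042 and -0.17 without Stat2 KO replicates 1, 2 and 3.

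Stat2 KO replicates 1 and 2 stood at the edge of several lists and of several Schlafen readings. Stat2 KO replicate 1 had the lowest mean of the T cell, dendritic cell and macrophage markers among all 6 tumours and the lowest readings of Slfn1, Slfn2, Slfn4 and Slfn8. Stat2 KO replicate 2 had the lowest mean of the interferon-induced, ISGF3, transfer RNA, fibroblast, endothelial and melanoma lists, the last at 11.18 where the other tumours were at 11.43 or more. It also had the lowest readings of Slfn3 and of the shared probe set of Slfn9 and Slfn8, and the highest of Slfn4 and Slfn8. The part of these lists in the Schlafen readings was not tested.

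**Figure D5:**
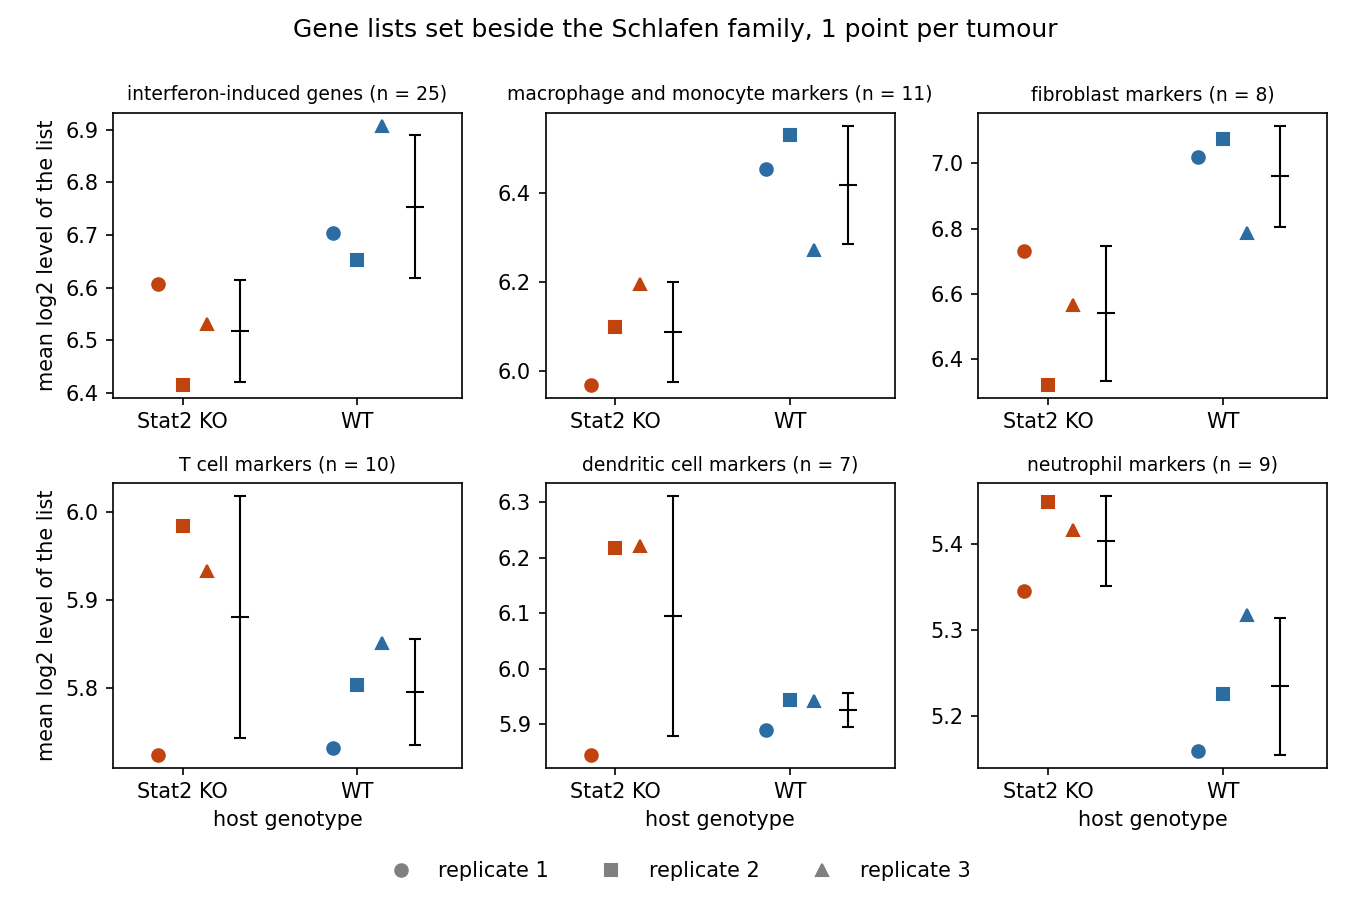
Mean log2 level of 6 gene lists in each tumour, with Stat2 KO hosts in orange, WT hosts in blue and black bars for the mean ± SD of 3 tumours, each panel on its own y axis. The interferon-induced, macrophage and fibroblast lists lie lower in all Stat2 KO tumours, the neutrophil list lies higher, and the T cell and dendritic cell lists overlap.

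Likeness of pattern was measured for the 2 single-gene probe sets that varied most over the 6 tumours, Slfn3 (SD 0.51) and Slfn8 (SD 0.30), as the root mean square distance between profiles centred on their own mean. Among 10459 genes brighter than the median gene, those nearest to Slfn3 were Gnpnat1 at 0.126, Mmp16 at 0.137, Tmlhe at 0.141, Ugcg at 0.150 and Acer3 at 0.163, against a median distance of 0.418. Those nearest to Slfn8 were Bhlha9 at 0.0747, Kremen2 at 0.0771, Nkain4 at 0.0832, Tmem191c at 0.0892 and Camk2a at 0.0911, against a median of 0.352. All 5 genes near Slfn3 were lowest in Stat2 KO replicate 2, and all 5 near Slfn8 were highest in that tumour. With 6 tumours and this many genes, near profiles are to be found for most patterns.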

How the data were processed

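Per the submitters' processing notes, the authors ran RMA in Affymetrix Expression Console 1.3.1, which gave the deposited log2 values. Precision is limited by the number of arrays, 3 a group. The build behind the annotation was not given in the sources used here. The platform annotation gives 1 gene for 23521 probe sets, several for 1814 and none for 16010. Differences, Stat2 KO host minus WT host, came from limma 3.58.1 in R 4.3.3 (lmFit, eBayes with an intensity trend) over all 41345 probe sets, unfiltered, two-sided, with Benjamini-Hochberg adjustment and a threshold of 0.05. All SEs, 95% intervals and adjusted p-values are from this fit. Exact permutation tests of single values were two-sided.

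Gene lists, 13 with 122 genes, 110 of them measured, used the brightest probe set naming only that gene. Named were all members, their relatives, the ISGF3 chain, up to 3 genes of each list by smallest p, and the nearest profiles. Only some lists' leading genes are printed. The members and lists were chosen with earlier results of these data known. The fit was tested on simulated data with normal noise and changes set in probe sets of spread below the median. It recovered 64 of 100 changed by -1 and 100 of 100 changed by -2, with 8 false calls among 172. Changes as small as the Schlafen differences were not simulated. Promoter windows were searched letter by letter and aligned with Biopython 1.88. The alternatives were a replicate block, further quantile normalization, median centring, only probe sets above the median level, 1 probe set per gene, no trend, array weights and each array left out.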

Additional observations from a re-analysis of the deposited data

How the results depend on the processing

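Limma called 0 Schlafen probe sets under all 13 alternatives, and adjusted p-values of the family ranged down to 0.294, with array weights. The shared probe set of Slfn9 and Slfn8 stayed lower in Stat2 KO hosts under all 12 alternatives that include it, between -0.78 and -0.52, as did Slfn3 under 13, between -0.94 and -0.51. Slfn2 stayed lower, between -0.33 and -0.13, and Slfn4 higher, between 0.0096 and 0.35. Signs turned for Slfn1 after median centring (-0.029), quantile normalization (-0.036) and without Stat2 KO replicate 3 (-0.054), for Slfn8 without Stat2 KO replicate 2 (-0.029) and for Slfn5 without WT replicate 1 (0.011). Without single arrays Slfn1 ranged from -0.054 to 0.127, Slfn8 from -0.029 to 0.38 and Slfn5 from -0.14 to 0.011. Without single arrays the family median lay between -0.059 and 0.034, and the number of lower genes between 2 and 4 of 6. Among probe sets above the median level only 3 of the 6 genes remained, with a median of 0.14 and 1 lower. Probe sets at an unadjusted p under 0.05 numbered 5912 with array weights, 1385 above the median level, and 1793 to 4627 without single arrays. The adjusted count over the table was 2 with 1 probe set per gene. That fit tests fewer features, and its unadjusted p-values differ too, with 0.0078 for Slfn3 in limma against 0.0228 in the main fit.

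With the replicate number as a block, 3373 probe sets had an unadjusted p under 0.05 against 2766 without it, 0 passed after adjustment, and 0 Schlafen calls changed. Deviations of same-numbered tumours correlated at 0.197, 0.081 and -0.0079, and 3 of 6 tumours correlated best with their own number, so the numbers were not taken as pairs. Without detection calls, signal over background was judged from the olfactory receptor probe sets alone, and Slfn5 read near their median.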
